A study of Homo sapiens with 4 samples.

Results

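Amino acid transporter genes of the solute carrier (SLC) families SLC1, SLC3, SLC7, SLC36, SLC38 and SLC43, with the glycine transporter gene SLC6A9, were followed in MiaPaCa2 cells exposed to LY101-4B. Members were the genes whose symbol was one of SLC1A, SLC3A, SLC7A, SLC36A, SLC38A or SLC43A followed only by digits, plus SLC6A9. Each had to be measured by a probe set carrying a single gene symbol, and the brightest such probe set stood for its gene. This gave 41 genes of the 18417 with a single-symbol probe set: 7 of SLC1, 2 of SLC3, 13 of SLC7, 4 of SLC36, 12 of SLC38, 2 of SLC43 and SLC6A9.

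MiaPaCa2 is an established human pancreatic carcinoma line, grown here in DMEM with serum. Total RNA was hybridised to Human Gene 1.0 ST arrays, 2 from cultures given LY101-4B at 50 µM for 24 h and 2 from cultures given vehicle for 24 h. The series title calls the compound an E2F inhibitor; E2F factors drive cells into S phase. The treatment protocol of the same samples names LY101-4D at 25 µM instead; titles, agent labels and design text give LY101-4B at 50 µM and were followed, and the vehicle is not named in the sources used here. A single line was studied, so the 2 arrays of a group, which the series calls biological replicates, are its only measure of spread.

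Amino acids cross membranes through carriers of several kinds. Members of SLC1 either take up glutamate and aspartate or exchange small neutral amino acids. Many SLC7 proteins work only as light chains bound to a heavy chain, SLC3A2 (4F2hc, or CD98) or SLC3A1 (rBAT), which brings them to the cell surface. SLC38 and SLC36 proteins couple transport to sodium or protons, and some of them act at the lysosome, where they export amino acids or report them to the growth kinase complex mTORC1. When amino acids are short or the endoplasmic reticulum is stressed, the transcription factor ATF4 is known to raise several of these genes, and the cystine carrier gene SLC7A11 is also a known target of the oxidative stress factor NRF2.

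Values are log2 signals after RMA, a procedure that corrects background, makes the arrays' distributions alike and summarises probes per probe set. Differences are LY101-4B minus vehicle with the standard error (SE) of limma's moderated fit, and a gene was called, that is, said to have risen or fallen, where its limma p adjusted over all 21214 annotated probe sets was under 0.05. Replicate arrays correlated at r = 0.994 for LY101-4B and 0.997 for vehicle, and arrays of different groups at 0.978 to 0.981. Of the line's markers, KRT8, KRT18, KRT19 and VIM gave means between 9.13 and 12.94 log2 units in either group, whereas the epithelial markers CDH1 and EPCAM stayed between 3.88 and 4.58. Among markers of other cell types, PTPRC, CD3E, CD14, PECAM1, VWF, DCN, PRSS1, CPA1 and GCG had group means below 6 log2 units. KRT7, ZEB1 and COL1A1 lay between 5.87 and 7.86, and INS was not analysed here. The fibroblast collagen gene COL1A2 stood at 10.37 log2 units with LY101-4B and 9.89 with vehicle. COL1A2 was called higher by 0.47, and KRT8 and KRT18 were called lower by -0.84 and -0.57. Their part in the results below was not tested.

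With LY101-4B, 13 of the 41 transporter genes rose, 1 fell and 27 were not called. Over all annotated probe sets, 9.1% were called higher and 10.5% lower. The members were chosen with earlier results of these data known, so these shares are a description and were not tested against each other. Each family held at least 1 rise: 2 in SLC1, 1 in SLC3, 3 in SLC7, 1 in SLC36, 4 in SLC38 and 1 in SLC43. SLC6A9, a single gene added to these families, was the other rise. Rises of at least 2-fold were seen for 6 members (SLC7A11, SLC1A4, SLC43A1, SLC7A5, SLC3A2 and SLC6A9), against 1.59% of all probe sets (1.62% fell that far, and 0 members did). The median difference over the 41 genes was 0.17 log2 units, beside 0.01 over all probe sets. With each array centred on its median, the members counted 10 higher and 2 lower, and all probe sets 1528 higher and 2731 lower in place of 1930 and 2236.

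**Figure D1:**
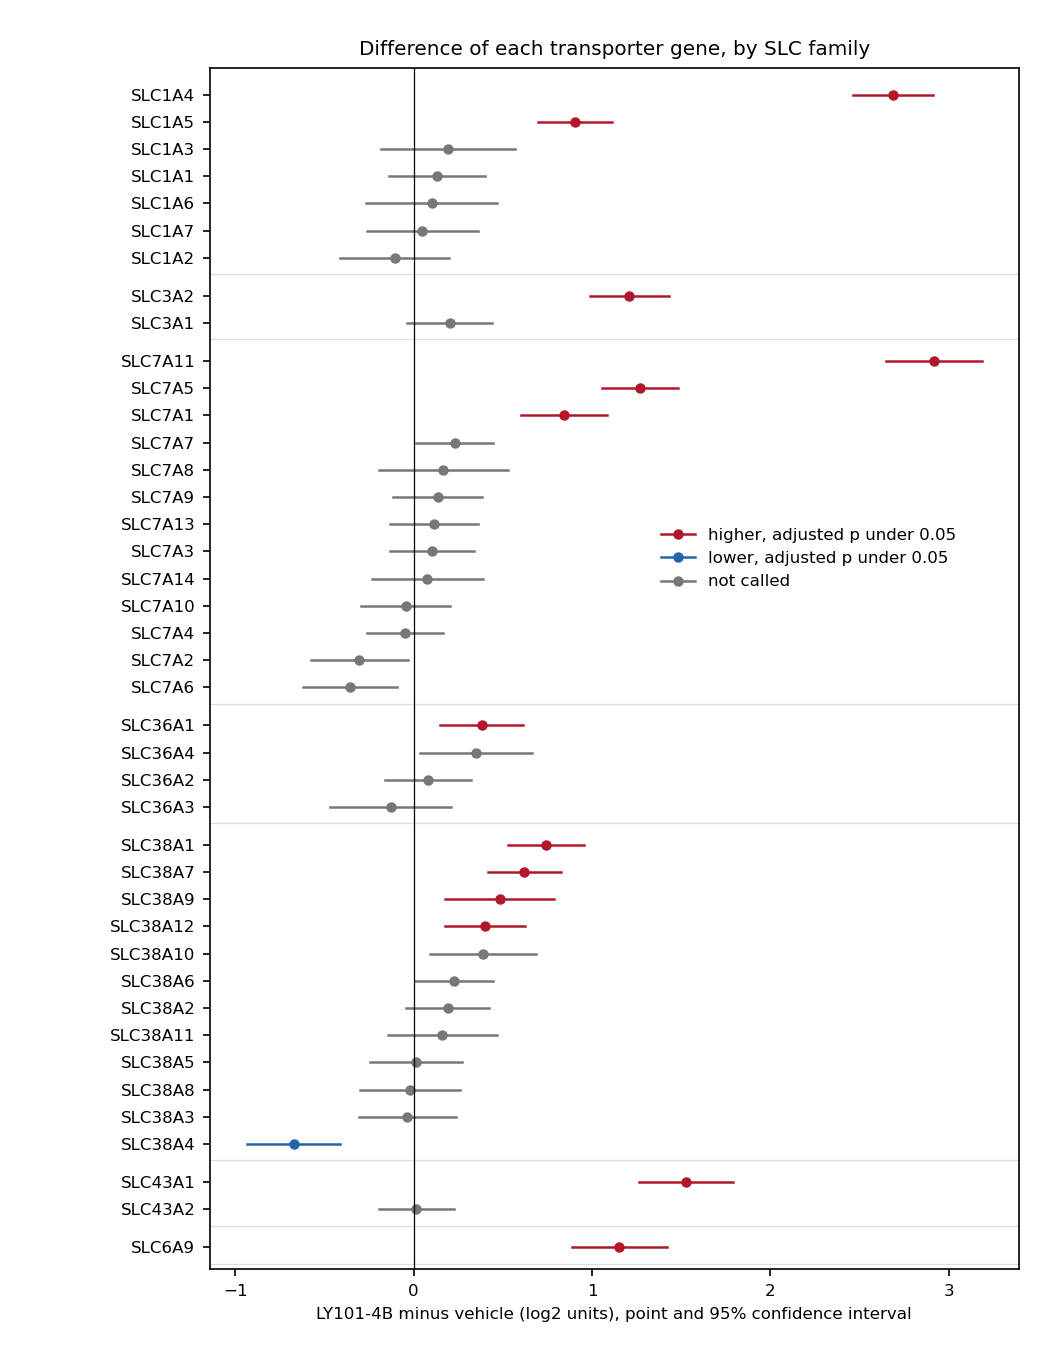
Difference of each of the 41 transporter genes, LY101-4B minus vehicle in log2 units (x axis), grouped by SLC family; points are estimates and lines 95% confidence intervals from limma, with 2 arrays a group. SLC7A11 and SLC1A4 lie far to the right at 2.92 and 2.69, and SLC38A4 is the only gene called lower, at -0.67.

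All 14 called members lay in the brighter 50% of the annotated probe sets, above a median of 6.49 log2 units over the 4 arrays. That mean includes the LY101-4B arrays, so a rise lifts it: SLC1A4, at 6.11 and 6.03 on the vehicle arrays, passed the median only through its LY101-4B values, and the split is given as a description. Among the brighter probe sets were 21 members, of which 13 rose, 1 fell and 7 were not called; of all probe sets there, 14.4% were called higher and 18.9% lower. None of the 20 members in the dimmer 50% was called by limma (2 had an unadjusted p under 0.05), with differences between -0.30 and 0.23, and 3.77% and 2.19% of all dim probe sets were called higher and lower. The files used here carry no detection calls, so it is not known which of the 20 were above background. RMA also narrows differences at low signal. Not being called does not show that a gene was unaffected: intervals of the 27 uncalled members reached down to -0.62 (SLC7A6) and up to 0.69 (SLC38A10).

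**Figure D2:**
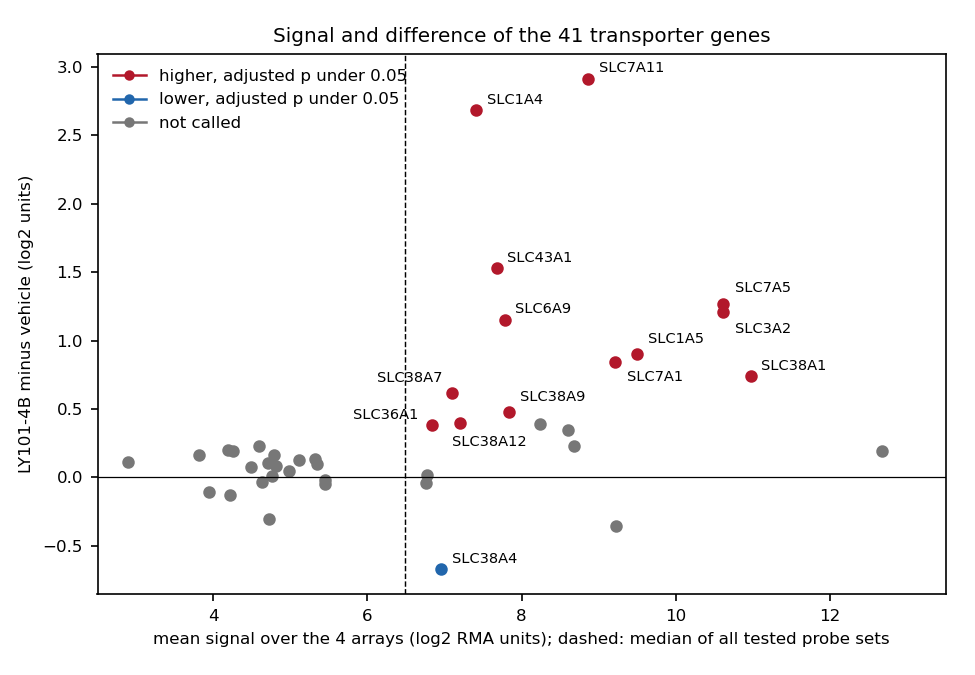
Mean signal over the 4 arrays in log2 RMA units (x axis) against LY101-4B minus vehicle in log2 units (y axis) for the 41 genes; the dashed line marks the median signal of all annotated probe sets, 6.49. All 20 genes left of the line are uncalled and lie between -0.30 and 0.23.

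In the SLC1 family, the neutral exchangers moved and the glutamate carriers were not called. SLC1A4 encodes ASCT1, which exchanges alanine, serine and cysteine. Its signal was 8.80 and 8.71 log2 units on the LY101-4B arrays, against 6.11 and 6.03 on the vehicle arrays. The groups were far apart, with a difference of 2.69 ± 0.09 (SE), or 6.44-fold (limma adjusted p 0.00039), the rise ranked 14 among 18417 genes. SLC1A5, which encodes the glutamine exchanger ASCT2, read 9.953 and 9.948 with LY101-4B and 9.054 and 9.035 with vehicle, a 1.87-fold rise (limma adjusted p 0.002). A dimmer probe set annotated to SLC1A5 did not share this rise, at 6.81 and 6.68 with LY101-4B and 6.80 and 6.66 with vehicle (difference 0.01 ± 0.10, SE), and the mean of both probe sets gave 0.46. The 5 carriers that take up glutamate and aspartate, SLC1A1, SLC1A2, SLC1A3, SLC1A6 and SLC1A7, differed by -0.11 to 0.19, with limma adjusted p from 0.453 to 0.834. Each lay in the dimmer 50%, and for SLC1A3 the interval of the difference still ran from -0.18 to 0.57.

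The heavy chain 4F2hc rose together with 2 of its 6 light chains. SLC3A2 itself read 11.15 and 11.27 log2 units with LY101-4B, against 10.01 and 10.00 with vehicle, a 2.31-fold rise (1.21 ± 0.09, SE; limma adjusted p 0.0012). SLC7A5 encodes LAT1, which brings in leucine and other large neutral amino acids. It read 11.20 and 11.28 with LY101-4B and 9.97 on both vehicle arrays, a 2.41-fold rise (1.27 ± 0.09, SE; limma adjusted p 0.00097). The intervals for heavy chain and LAT1, 0.99 to 1.43 and 1.05 to 1.48, covered each other almost fully. Partial copies of SLC7A5 exist as pseudogenes, and what they add to its signal was not tested.

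SLC7A11 encodes xCT, which takes in cystine, the source of cysteine for glutathione, in exchange for glutamate. It read 10.25 and 10.40 log2 units with LY101-4B, against 7.31 and 7.50 with vehicle. The difference of 2.92 ± 0.11 (SE; limma adjusted p 0.00043) was the largest of the 41 genes and ranked 9 among all genes. Its interval, 2.65 to 3.18, lay wholly above that of its heavy chain.

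The other light chains of 4F2hc were not called. SLC7A6, which encodes y+LAT2, an exchanger of arginine for glutamine, read 9.02 and 9.08 with LY101-4B, against 9.30 and 9.51 with vehicle. Its groups did not overlap and its difference was -0.36 ± 0.11 (SE; limma adjusted p 0.07), which passed at 0.0467 with arrays centred on their medians. The brighter 50% of probe sets alone (0.0239) and a fit with an intensity trend (0.0206) also took it past the threshold. SLC7A10, the Asc-1 gene, differed by -0.04, SLC7A8, the LAT2 gene, by 0.17, and SLC7A7, the y+LAT1 gene, by 0.23, with limma adjusted p of 0.819, 0.509 and 0.131. The second heavy chain, SLC3A1, and its light chains SLC7A9 and SLC7A13, which together reabsorb cystine and other amino acids in kidney, differed by 0.12 to 0.20 and were not called.

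Of the cationic amino acid transporters, SLC7A1, which encodes the arginine and lysine carrier CAT1, read 9.59 and 9.67 with LY101-4B, against 8.71 and 8.87 with vehicle, and rose 1.79-fold (0.84 ± 0.10, SE; limma adjusted p 0.0039). SLC7A2 and SLC7A3 of the same group differed by -0.30 and 0.10 and were not called. Neither were the related genes SLC7A4 (-0.05) and SLC7A14 (0.08), whose transport is less well known.

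**Figure D3:**
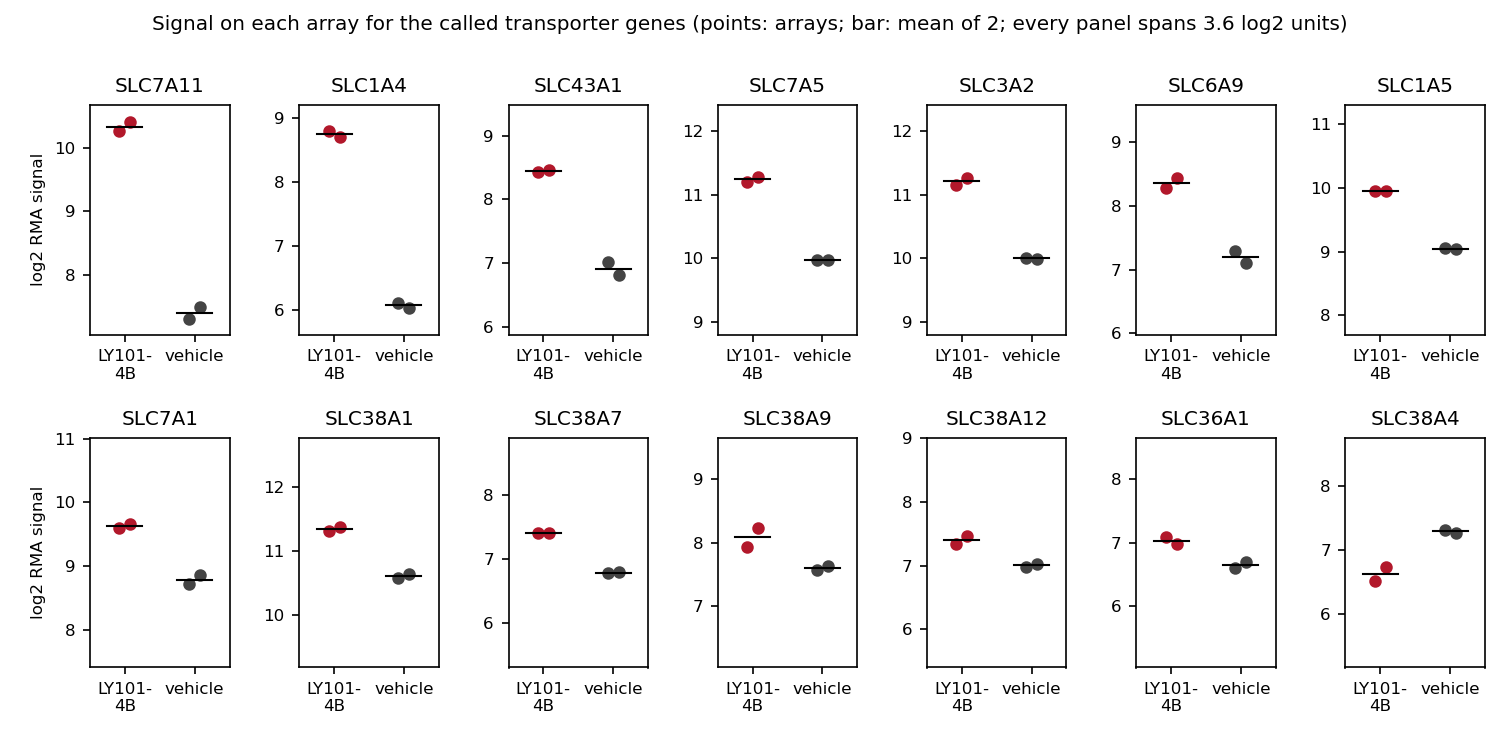
Log2 RMA signal on each array for the 14 called transporter genes, with LY101-4B at the left of each panel and vehicle at the right; points are arrays, bars the mean of 2, and every panel spans the same height. No panel shows overlapping groups, but the genes were picked by their calls on these same arrays, so this is no separate result. The gap is widest for SLC7A11 (10.25 and 10.40 against 7.31 and 7.50) and SLC1A4.

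Outside SLC1 and SLC7, the largest rise was that of SLC43A1, which encodes LAT3, a facilitative carrier of branched-chain amino acids and phenylalanine. It read 8.43 and 8.46 with LY101-4B, against 7.03 and 6.81 with vehicle, a 2.88-fold rise (1.53 ± 0.11, SE; limma adjusted p 0.001). Its relative SLC43A2, the LAT4 gene, read 6.77 and 6.79 with LY101-4B and 6.74 and 6.80 with vehicle, so the groups overlapped and the difference was 0.02, with an interval from -0.19 to 0.23. SLC6A9 encodes the glycine transporter GLYT1. It read 8.29 and 8.43 with LY101-4B, against 7.30 and 7.11 with vehicle, and rose 2.23-fold (1.15 ± 0.11, SE; limma adjusted p 0.0021).

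The promoters of these genes were read for the letters of 2 motifs. The first, TGATGNAA, is the core of the CARE, the element bound by ATF4 with a CEBP partner, and the second, TGACNNNGC, is the core of the antioxidant response element (ARE) bound by NRF2. Windows ran from 250 bases before to 50 after each annotated start in RefSeq, build GRCh38.p14, and both strands were searched. For 33 of the 41 members the table held 55 windows, since some genes have several starts; SLC7A11, SLC1A2, SLC3A1, SLC7A2, SLC7A3, SLC7A4, SLC7A13 and SLC38A3 had none and were not read. In no window did both motifs overlap. The CARE letters stood in at least 1 window of 5 of the 12 risers with a window (SLC1A4, SLC1A5, SLC3A2, SLC7A1 and SLC38A1), in 0 of 1 fallers and in 1 of 20 uncalled members (SLC1A3). Of all 14237 measured genes with a window, 3.59% held them. The ARE letters stood in 4 of the 12 risers (SLC1A5, SLC3A2, SLC7A1 and SLC7A5), or 33.3%, and in 0 of 1 fallers. Of the 20 uncalled members, 3 (SLC1A3, SLC7A6 and SLC7A7), or 15%, held them, against 18.3% of measured genes. Per window, 3.62% and 13.3% of all RefSeq windows held the CARE and the ARE letters. These counts describe letters in a window and were not tested.

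Stretches of 60 bases around a match are shown for 6 risers and for SLC1A3, which holds the full CARE letters and was not called. Each runs 5′ to 3′ along the gene's own strand, and the capitals mark the motif. Positions count from 1 annotated start of the gene, with the base before it at -1. SLC1A4 and SLC38A1 each had 2 windows and SLC3A2 and SLC1A3 each had 3, and the match shown stood in only 1 of them.
SLC1A4, CARE on the opposite strand at -7 to 1, chr2:64989344-64989403, plus strand: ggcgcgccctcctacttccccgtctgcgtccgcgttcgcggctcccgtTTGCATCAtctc
SLC1A5, CARE at -97 to -90 before the most downstream of its 3 annotated starts, chr19:46784875-46784934, minus strand: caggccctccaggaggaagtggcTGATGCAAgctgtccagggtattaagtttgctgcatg
SLC38A1, CARE at -4 to 4, chr12:46266512-46266571, minus strand: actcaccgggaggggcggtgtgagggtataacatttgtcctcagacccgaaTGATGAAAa
SLC3A2, ARE at -37 to -29, chr11:62881639-62881698, plus strand: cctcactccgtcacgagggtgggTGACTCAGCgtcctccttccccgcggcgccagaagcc
SLC7A5, ARE at -2 to 7, chr16:87869500-87869559, minus strand: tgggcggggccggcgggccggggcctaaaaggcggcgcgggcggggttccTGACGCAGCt
SLC7A1, ARE at -85 to -77, chr13:29595739-29595798, minus strand: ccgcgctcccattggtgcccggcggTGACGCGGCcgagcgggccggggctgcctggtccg
SLC1A3, CARE at -220 to -213, chr5:36596358-36596417, plus strand: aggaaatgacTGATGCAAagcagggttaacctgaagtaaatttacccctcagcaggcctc
The CARE letters of SLC3A2 (38 to 45) and SLC7A1 (8 to 15) lie after the start, outside the stretches shown.

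The SLC38 family moved in both directions. SLC38A1, which encodes the sodium-coupled glutamine carrier SNAT1, read 11.31 and 11.37 with LY101-4B, against 10.57 and 10.63 with vehicle, and rose 1.67-fold (0.74 ± 0.09, SE; limma adjusted p 0.004). SLC38A4, the gene of the related carrier SNAT4, read 6.51 and 6.73 with LY101-4B, against 7.32 and 7.27 with vehicle. It fell 1.59-fold (-0.67 ± 0.11, SE; limma adjusted p 0.01), the only fall among the 41 genes, and missed the threshold without vehicle replicate 1 (0.0668) or replicate 2 (0.0542). SLC38A2, which encodes SNAT2, the carrier of this group known for its response to amino acid shortage, was high in all 4 samples. It read 12.73 and 12.83 with LY101-4B and 12.53 and 12.64 with vehicle. The groups did not overlap, but the difference of 0.19 ± 0.09 (SE; interval -0.04 to 0.43) was not called (limma adjusted p 0.228); with an intensity trend it passed at 0.0273.

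The remaining SLC38 calls were smaller. SLC38A12 read 7.34 and 7.46 with LY101-4B, against 6.98 and 7.02 with vehicle (0.40 ± 0.09, SE; limma adjusted p 0.0322). Without a vehicle array its adjusted p was 0.211 or 0.168, without LY101-4B replicate 2 it was 0.0676, with median centring 0.0666 and over all 33297 rows 0.0861. Among uncalled members of the family, SLC38A10 had the lowest adjusted p, at 8.29 and 8.56 with LY101-4B and 7.98 and 8.09 with vehicle (0.39 ± 0.12, SE; limma adjusted p 0.077). It passed under cyclic loess (0.0403), in the brighter 50% alone (0.0287), with an intensity trend (0.0353) and without LY101-4B replicate 1 (0.041). SLC38A6 differed by 0.23 and SLC38A11 by 0.16. SLC38A3 and SLC38A5, which encode the glutamine carriers SNAT3 and SNAT5, and SLC38A8 differed by -0.03, 0.01 and -0.02; none of these was called.

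Among the members whose products act at the lysosome, SLC38A7, SLC38A9 and SLC36A1 were called higher. SLC38A7, which encodes a lysosomal exporter of glutamine and asparagine, read 7.41 and 7.40 with LY101-4B, against 6.78 on both vehicle arrays (0.62 ± 0.08, SE; limma adjusted p 0.006). SLC38A9, the arginine sensor of mTORC1 on that membrane, read 7.93 and 8.23 with LY101-4B, against 7.57 and 7.64 with vehicle (0.48 ± 0.12, SE; limma adjusted p 0.0461). SLC36A1, the gene of the proton-coupled carrier PAT1, read 7.09 and 6.97 with LY101-4B, against 6.61 and 6.70 with vehicle (0.38 ± 0.09, SE; limma adjusted p 0.0415). In each the groups were apart, but none of the 3 kept its call in all 12 alternatives. SLC38A7 was no longer called when a vehicle array was left out (0.0551 without replicate 1 and 0.0537 without replicate 2), SLC38A9 in 5 and SLC36A1 in 7 of the 12 alternatives run, up to adjusted p values of 0.211 and 0.264. SLC36A4, the PAT4 gene, read 8.65 and 8.92 with LY101-4B and 8.34 and 8.52 with vehicle, a difference of 0.35 ± 0.13 (SE) that was not called (limma adjusted p 0.119). SLC36A2 (0.08) and SLC36A3 (-0.13) were dim and uncalled.

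A list of 27 other genes for amino acid carriers, outside these families, was set beside them. All 27 were measured; 5 rose, 5 fell and 17 were not called, with a median of 0.05 log2 units. In a grouping of these carriers by place, made after their values were seen and not tested, the mitochondrial group held the 5 falls and 2 of the rises among its 10 genes, beside 10.5% lower and 9.1% higher over all probe sets. In the brighter 50% of probe sets, which held 8 of the 10 genes, 18.9% were called lower and 14.4% higher. Without vehicle replicate 1 or without replicate 2, 2 of the 10 were called lower, SLC25A12 and SLC25A22, and by limma 0 higher (2 at an unadjusted p under 0.05 in each case). SLC25A12, a carrier of aspartate and glutamate that serves the malate-aspartate shuttle, read 7.43 and 7.76 with LY101-4B, against 8.63 and 8.57 with vehicle (-1.002 ± 0.13, SE; limma adjusted p 0.0055). The glutamate carrier gene SLC25A22 read 7.16 and 7.41 with LY101-4B, against 8.21 and 8.11 with vehicle (-0.88 ± 0.12, SE; limma adjusted p 0.0057). The ornithine carrier gene SLC25A15 fell by 0.65 log2 units. The glycine carrier gene SLC25A38 rose by 0.64. SLC25A2, a second ornithine carrier gene, rose by 0.52 from a dim signal. Its call was lost in 5 of the 11 alternatives that tested it: over all rows (limma adjusted p 0.0651) and with any single array left out. The serine carrier gene SFXN1 (-0.52) and SLC25A13 (-0.42), a second aspartate and glutamate carrier gene, also fell; these and the genes SLC66A1 and SLC6A7 below were chosen after their values were seen. SLC25A18, SLC25A29 and SLC25A44 were not called.

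In the lysosome, CTNS, whose product exports cystine, rose by 0.66 ± 0.09 (SE; limma adjusted p 0.0062) and SLC66A1, whose product exports cationic amino acids, by 0.50 ± 0.09 (SE; limma adjusted p 0.0164), while SLC15A4 differed by -0.01. With SLC36A1, SLC38A7 and SLC38A9, 5 of the 6 lysosomal carriers considered were called higher and by limma 0 lower (0 at an unadjusted p under 0.05), with a median of 0.49 beside 0.01 over all probe sets, of which 9.1% were called higher. All 6 lay in the brighter 50% of probe sets, of which 14.4% were called higher. This group too was put together after the values were seen, so its count is a description and was not tested. SLC36A4 (0.35) and SLC7A14 (0.08), neither of them called, were left out of the group. Its 5 calls became 3 with median centring, 2 over all rows, 1 (CTNS) without vehicle replicate 1 and 0 without vehicle replicate 2, where 5 had an unadjusted p under 0.05. Of the 9 other carriers of the plasma membrane, SLC6A7 rose (0.49, limma adjusted p 0.0389) from a dim signal and 8 were not called. The call of SLC6A7 was lost in 4 of the 11 alternatives that tested it. The 5 vesicular carriers were not called either. Without vehicle replicate 2, 0 of the 27 were called higher by limma (5 at an unadjusted p under 0.05) and 2 lower, and without vehicle replicate 1, 1 was called higher and 2 lower. SLC25A12 and SLC25A22 stayed called in all 12 alternatives.

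**Figure D4:**
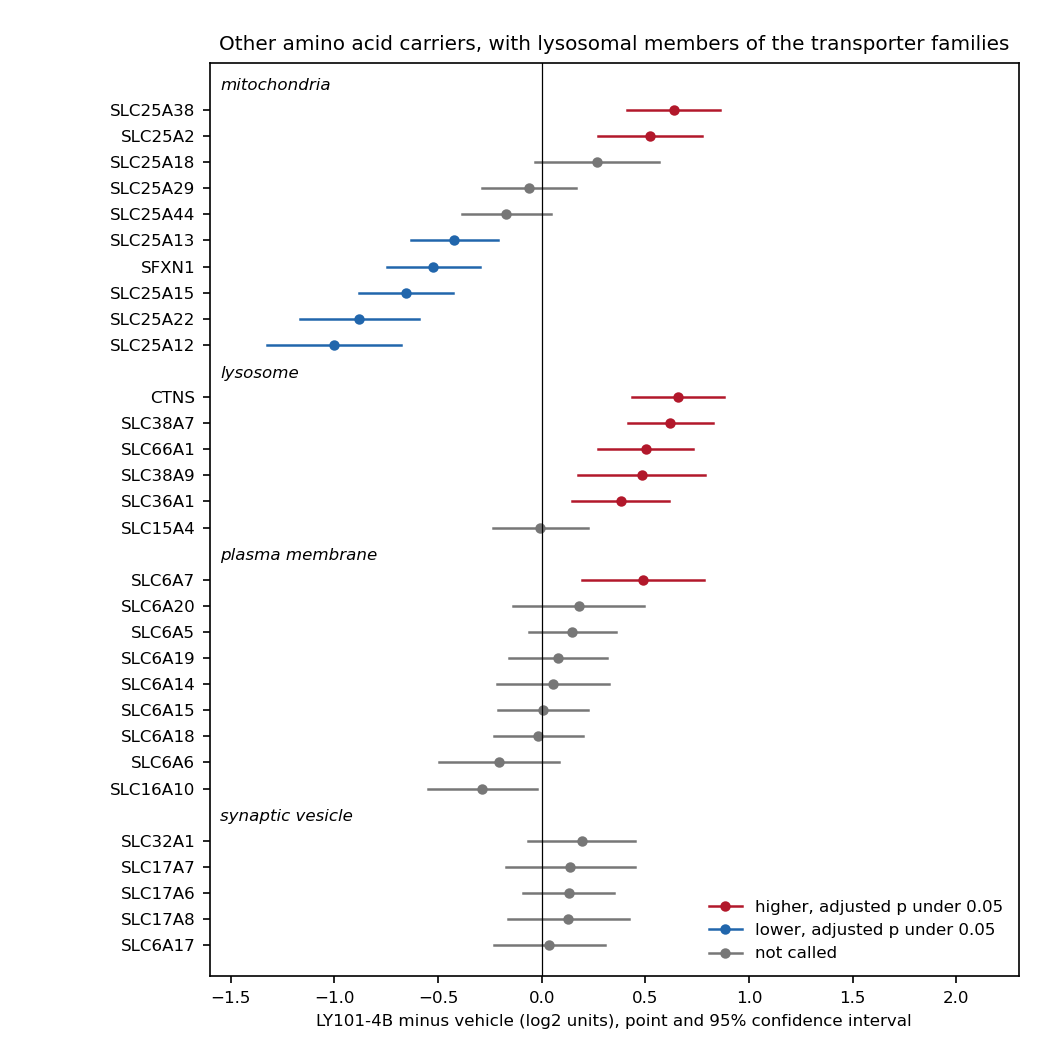
LY101-4B minus vehicle in log2 units (x axis) for the 27 other amino acid carriers and the lysosomal genes SLC36A1, SLC38A7 and SLC38A9, grouped by where they act; points are estimates and lines 95% confidence intervals from limma, with 2 arrays a group. The 5 genes called lower, down to -1.002 for SLC25A12, are plotted in the mitochondrial group, and the uncalled plasma membrane gene SLC16A10 lies at -0.29 with an interval from -0.55 to -0.02.

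The 288 other SLC genes, of any substrate, had a median of 0.04, with 14.2% called higher and 6.94% lower. Among the 41 amino acid transporter genes, chosen with earlier results of these data known, 31.7% were called higher. The groups did not overlap for 25 of the 41, with LY101-4B higher in 22 and lower in 3; over all probe sets 28.5% lay apart upwards and 29.5% downwards. Of the 13 rises, 9 passed in all 12 alternatives: SLC1A4, SLC1A5, SLC3A2, SLC7A1, SLC7A5, SLC7A11, SLC38A1, SLC43A1 and SLC6A9. No called member changed sign in any of them.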

How the data were processed

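The series holds 4 one-colour Human Gene 1.0 ST arrays of MiaPaCa2 RNA, 2 per group. The deposited values are log2 expression per probe set, made with RMA per the submitters' processing notes; the sources used here name no software version, probe set definition or filter, and scanner files were not used here. All columns were mapped to samples (0 left out). Of 33297 rows, 19460 had 1 gene symbol, 1754 several and 12083 none, from the platform annotation; 0 symbols differed from RefSeq by gene identifier, and 31 had no entry there. The 21214 annotated probe sets went into a linear model with treatment as its term (limma 3.58.1, R 4.3.3; lmFit, then eBayes), 2-sided, with Benjamini-Hochberg adjustment over all of them. Residual degrees of freedom were 2 and prior ones 3.75. It was tested on simulated data. Array number limits the precision.

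Members, carrier list and tests were chosen with earlier results of these data known, and the grouping of carriers by place was written after their values were seen. All members could be named; called ones are given on every array, and of the other carriers the 6 called ones with the largest change, exceptions being marked. Alternatives were cyclic loess, median centring, all rows, the brighter 50% of probe sets, an intensity trend, a robust prior, the mean of a gene's probe sets, a replicate block and leaving out each array. Promoter sequences are RefSeq's.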

Additional observations from a re-analysis of the deposited data

How the results depend on the processing

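Of the 14 called transporter genes, 9 kept their call in all 12 alternatives; SLC36A1, SLC38A4, SLC38A7, SLC38A9 and SLC38A12 lost it in at least 1, each without either vehicle array. Of the 27 uncalled members, 3 passed in at least 1 alternative (SLC7A6, SLC38A2 and SLC38A10). Members called higher ranged from 9 to 13 and members called lower from 0 to 1 when 1 array was left out. With median centring, the brighter 50% or an intensity trend, 2 members were called lower. Over all probe sets, the counts ranged from 755 to 1899 higher and 811 to 2467 lower when 1 array was left out, and over all rows they were 1162 and 1271. Other carriers called higher ranged from 0 to 5 and lower from 2 to 5 when 1 array was left out, and 2 over all rows and 3 in the brighter 50%, which tested 12 of the 27, were called higher. A fit without 1 array takes its spread from fewer arrays, with the lone array of a group assumed to vary like the other group. The cause of the other changes was not tested.

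Replicates 1 and 2 share only a number in the labels; deviations of same-numbered arrays correlated at r = 0.116. With a replicate block, 13 members were called higher and 1 lower, 5 and 5 of the other carriers, and 2024 and 2312 of all probe sets; SLC36A1 missed the threshold (adjusted p 0.0536) and SLC38A10 passed it (0.0441).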

Other observations

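One further gene of these families, SLC43A3, is covered by a probe set that also carries the symbol PRG2, so it was not a member. That probe set read 4.97 and 5.21 log2 units with LY101-4B and 5.30 and 5.16 with vehicle. The groups overlapped, and the difference of -0.14 ± 0.12 (SE) was not called (limma adjusted p 0.498). For SLC7A14, the other member with a dimmer probe set, neither probe set was called, at 0.08 and 0.19 log2 units.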
